A study of Mus musculus with 13 samples.

Results

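The genes of embryonic haemoglobin and of primitive red blood cells were followed across the implantation sites of mouse and rat embryos carried in a mouse uterus. The 9 genes were Hbb-y, Hbb-bh1, Hba-x, Alas2, Epor, Gata1, Klf1, Slc4a1 and Epb42, chosen as globins of the embryo, a haem synthesis enzyme, the erythropoietin receptor, erythroid transcription factors and proteins of the red cell membrane. All 16 probe sets whose platform annotation names only 1 of these genes were taken, out of 45101 probe sets and 18194 genes with a probe set of their own on the array. A probe set is a group of short probes meant to report 1 transcript, though some are annotated to several similar genes. Hbb-y, Hbb-bh1 and Slc4a1 had 3 probe sets each, Epb42 had 2, and the other genes had 1 each.

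RNA came from whole implantation sites, which hold the embryo together with the decidua and vessels of the mother, and was hybridised to 13 Affymetrix Mouse430_2 arrays. The recipients were all ICR mice, into which embryos were transferred on day 3 of pseudopregnancy, and no group lacked the transfer. Mouse sites came from uteri given mouse embryos flushed on day 4 of pregnancy, and rat sites from uteri given Wistar rat embryos flushed on day 5. Co-transfer rat sites were sites of rat embryos in uteri that had received embryos of both species. Each kind of site was collected on day 7 and on day 9, giving 6 groups of 2 arrays, with 3 arrays for co-transfer rat sites of day 7. The days count the pregnancy of the recipient, and the labels do not give the stage that the embryos themselves had reached. Nor do they tie each array to an animal of its own. Every p below therefore rests on the spread among arrays, part of which may be technical. The probes match mouse transcripts, and how well rat transcripts bind to them was not measured. In such whole sites, fewer cells of a type and less RNA per cell cannot be told apart, nor can RNA of the embryo and RNA of the mother.

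The first red blood cells of the mammalian embryo are primitive erythroblasts, which form in blood islands of the yolk sac. Hbb-y and Hbb-bh1 encode embryonic beta-like globins and Hba-x the embryonic alpha-like (zeta) globin, which these cells make before adult globins take over. Alas2 is the erythroid enzyme that starts haem synthesis. Epor is the receptor for erythropoietin, Gata1 and Klf1 are transcription factors that activate globin and membrane genes, Slc4a1 is the band 3 anion exchanger, and Epb42 (protein 4.2) links band 3 to the membrane skeleton.

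On the arrays, array-wide median signals lay between 141.4 and 204.6. The signal of the middle probes for 18S ribosomal RNA was 6209 to 6737 on the rat arrays of day 9 and 522.4 to 1933 on the other arrays. The ratio of 3' to 5' Gapdh signal was 1.44 to 1.54 on the mouse arrays of day 7 and 2.56 to 4.07 on the others. The part of these differences in the results below was not tested. Wash runs inferred from recorded times placed mouse and rat sites of day 7 together, and rat and co-transfer rat sites of day 9 together. For every other comparison the wash run and the group cannot be told apart. Replicate 3 of co-transfer rat sites of day 7 was alone in its wash run, with a later recorded hybridisation date than all other arrays.

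Differences were tested with limma on log2(signal + 57.1), where 57.1 is the 25th percentile of all deposited signals. Adding 57.1 makes the fold change of a probe set near background smaller than the ratio of its signals. Signals under 57.1 are treated as background with no order among them. The 22138 probe sets above the 60th percentile of their array on at least 2 arrays were tested, and a call is a Benjamini-Hochberg adjusted p under 0.05 within 1 comparison. Of the 16 probe sets, 13 passed, from 8 of the 9 genes. Both Epb42 probe sets and Slc4a1 1431743_a_at did not pass. The probe sets of Hba-x and Gata1, those of Slc4a1 that passed, and Hbb-y 1450621_a_at, 5 in all, passed only through the mouse arrays of day 9, where they were high. They were therefore bound to differ, and counts over the 13, and the values and p of these 5 in comparisons with mouse sites of day 9, are given as a description only. The other Hbb-y probe sets, and those of Hbb-bh1 and Alas2, passed only through mouse and rat arrays of day 9. Their values and p for these groups against day 7 or co-transfer rat sites are likewise a description. Alas2 and Hbb-bh1 1450736_a_at were above the level on rat replicate 1 but not 2. Both thus also needed mouse sites of day 9 to pass. Their values and p between rat and mouse sites of day 9 are therefore a description too.

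The stretch of 250 bases before the transcription start is shown for 4 members to place their values beside their promoters: Hbb-y and Hba-x because these globins moved together, Alas2 because it rose in every kind of site, and Klf1 because its change was called in no comparison. The sequences are RefSeq's, on mouse build GRCm38.p6, read 5′ to 3′ in the direction of the gene. Capitals mark 3 kinds of word on either strand. A GATA word is AGATAA or AGATAG, or the same with a leading T in place of A, and on the other strand it begins with TTATC or CTATC. The others are CACCC, which reads GGGTG on the other strand, and CCAAT, which reads ATTGG. No 2 kinds overlap in the windows shown.
Hbb-y: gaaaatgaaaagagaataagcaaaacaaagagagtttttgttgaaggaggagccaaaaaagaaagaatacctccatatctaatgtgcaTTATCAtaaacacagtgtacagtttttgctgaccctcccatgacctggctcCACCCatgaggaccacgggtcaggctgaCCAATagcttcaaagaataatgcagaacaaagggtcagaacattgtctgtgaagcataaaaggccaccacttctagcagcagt
Hba-x: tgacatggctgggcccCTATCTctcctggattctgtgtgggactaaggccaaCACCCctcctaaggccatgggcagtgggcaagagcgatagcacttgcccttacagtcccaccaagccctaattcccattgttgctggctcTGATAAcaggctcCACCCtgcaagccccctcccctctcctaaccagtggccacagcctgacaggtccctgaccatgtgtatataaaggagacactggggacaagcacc
Alas2: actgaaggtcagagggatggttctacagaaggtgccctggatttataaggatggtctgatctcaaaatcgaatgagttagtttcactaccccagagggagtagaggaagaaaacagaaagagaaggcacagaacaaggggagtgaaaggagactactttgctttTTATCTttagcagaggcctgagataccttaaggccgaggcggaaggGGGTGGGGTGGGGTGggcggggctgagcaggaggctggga
Klf1: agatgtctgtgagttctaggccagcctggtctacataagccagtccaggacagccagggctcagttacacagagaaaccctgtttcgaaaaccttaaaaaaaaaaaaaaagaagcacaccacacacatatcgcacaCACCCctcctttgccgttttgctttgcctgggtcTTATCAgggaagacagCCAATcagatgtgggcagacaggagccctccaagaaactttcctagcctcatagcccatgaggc

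The Hbb-y stretch is chr7:103853208-103853457 on the minus strand. Those of Hba-x (chr11:32276350-32276599), Alas2 (chrX:150547167-150547416) and Klf1 (chr8:84901732-84901981) are on the plus strand. Promoters were found for 7 of the 9 genes, the other two being Hbb-bh1 and Slc4a1. A GATA word was present in 6 of the 7, against 26.5% of 32851 mouse promoters of the same length, and CACCC in 6 of the 7, against 52.0%. Both words occurred in 5 of the 7, against 11.8% of all promoters, and CCAAT in 2 of the 7, against 33.8%. GATA words are the letters that GATA factors such as Gata1 bind, and CACCC is the core of the letters that Klf1 binds. A match of letters is a description and not a bound site. The Hbb-y window held 1 of each word, with CACCC 107 to 111 and CCAAT 79 to 83 bases before the start. In the Alas2 window, CACCC stood 3 times side by side on the other strand, 26 to 40 bases before the start. The Gata1 window, not shown, held CACCC but no GATA word.

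Hbb-y rose from background to high signal in mouse sites, to a lower signal in rat sites, and stayed at background in co-transfer rat sites. Its probe set 1436717_x_at read 5.8 and 11.8 in mouse sites of day 7, and 21166 and 25015 in mouse sites of day 9. In rat sites it read 16.5 and 12.9 on day 7, and 809.5 and 762.6 on day 9. In co-transfer rat sites the signals were 10.1, 2.4 and 4.6 on day 7, and 8.3 and 8.6 on day 9. High signal was therefore present on both mouse arrays of day 9, signal far below it on both rat arrays of day 9, and signal under 57.1 on all 9 other arrays, with no overlap between these levels. The day 9 mean in rat sites was 3.40% of that in mouse sites, and the mean in mouse sites was 404.4 times the level of 57.1. The log2 change from day 7 to day 9 was 8.45 ± 0.11 (SE) in mouse sites (adjusted p = 1.32e-10) and 3.55 ± 0.11 in rat sites (adjusted p = 2.65e-08). In co-transfer rat sites it was 0.06 ± 0.10 (adjusted p = 0.691).

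A second Hbb-y probe set, 1436823_x_at, gave much the same picture. Its day 9 signals were 22417 and 23943 in mouse sites, 868.5 and 740.7 in rat sites, and 9.4 and 7.8 in co-transfer rat sites. Probe set 1450621_a_at read 10650 and 11104 in mouse sites, 175.1 and 126.8 in rat sites, and 22.1 and 28.9 in co-transfer rat sites. All 3 probe sets of Hbb-y were under 57.1 on all 7 arrays of day 7. The share of the mouse mean reached in rat sites of day 9 was 3.47% for 1436823_x_at and 1.39% for 1450621_a_at. The same 3 levels, mouse above rat above co-transfer, were thus seen with each probe set, and co-transfer rat sites were at background with each. Against that background the log2 difference of co-transfer from rat sites is fixed by the rat signal over 57.1, so its size is not compared between probe sets. It was -3.68 ± 0.11 with 1436717_x_at, -3.71 ± 0.15 with 1436823_x_at and -1.32 ± 0.12 with 1450621_a_at (adjusted p = 2.49e-08, 9.18e-08 and 2.57e-05).

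Hbb-bh1 followed the same order. On probe set 1450736_a_at, mouse sites read 13.6 and 17.5 on day 7, and 13039 and 14529 on day 9. Rat sites read 20.6 and 15.0 on day 7, and 292.5 and 262.0 on day 9. Co-transfer rat sites read 19.1, 21.6 and 12.0 on day 7, and 13.6 and 14.3 on day 9, so that this group stayed at background on both days. The other Hbb-bh1 probe sets, 1437810_a_at and 1437990_x_at, read 13189 to 15573 in mouse sites of day 9, 284.9 to 514.7 in rat sites of day 9, and 7.8 to 31.0 in co-transfer rat sites of day 9. Rat sites of day 9 reached 2.01%, 2.37% and 2.76% of the mouse mean on the 3 probe sets. The log2 difference of rat from mouse sites on day 9 was -5.37 ± 0.10 with 1450736_a_at, -5.18 ± 0.14 with 1437810_a_at and -5.03 ± 0.28 with 1437990_x_at, all called (adjusted p = 1.84e-09, 1.11e-08 and 8.39e-07). The value of 1450736_a_at, which needed mouse sites of day 9 to pass, is a description only. Co-transfer rat sites lay below rat sites by a further log2 difference of -2.23 ± 0.10, -2.28 ± 0.14 and -2.74 ± 0.28 (adjusted p = 2.22e-07, 1.57e-06 and 5.40e-05).

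Hba-x, the partner of these beta-like chains in the embryonic tetramer, read 28.5 and 18.1 in mouse sites of day 7, and 9311 and 8996 in mouse sites of day 9. In rat sites it read 26 and 12.8 on day 7, and 129.1 and 166.8 on day 9, which is 1.62% of the mouse mean. In co-transfer rat sites it read 20, 47.5 and 26.5 on day 7, and 94.3 and 22.3 on day 9. Replicate 1 of co-transfer rat sites of day 9 was thus the only array outside the mouse and rat groups of day 9 on which an embryonic globin exceeded 57.1. Hba-x, also tested only through mouse sites of day 9, rose there by 6.84 ± 0.26 on the log2 scale (adjusted p = 9.90e-08) and by 1.42 ± 0.26 in rat sites (adjusted p = 0.00221). Its difference between co-transfer and rat sites of day 9 was -0.90 ± 0.26 (adjusted p = 0.0254), a call that depends on single arrays. It was -0.43 without replicate 2 of the co-transfer group (adjusted p = 0.172), -1.36 without replicate 1 of that group, and -1.03 and -0.76 without replicate 1 or 2 of the rat group (adjusted p = 0.0510 and 0.130). Without replicate 2 of the co-transfer group, its rise from day 7 in that group was 0.79 and was called (adjusted p = 0.0274), against 0.32 with both arrays (adjusted p = 0.372).

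**Figure D1:**
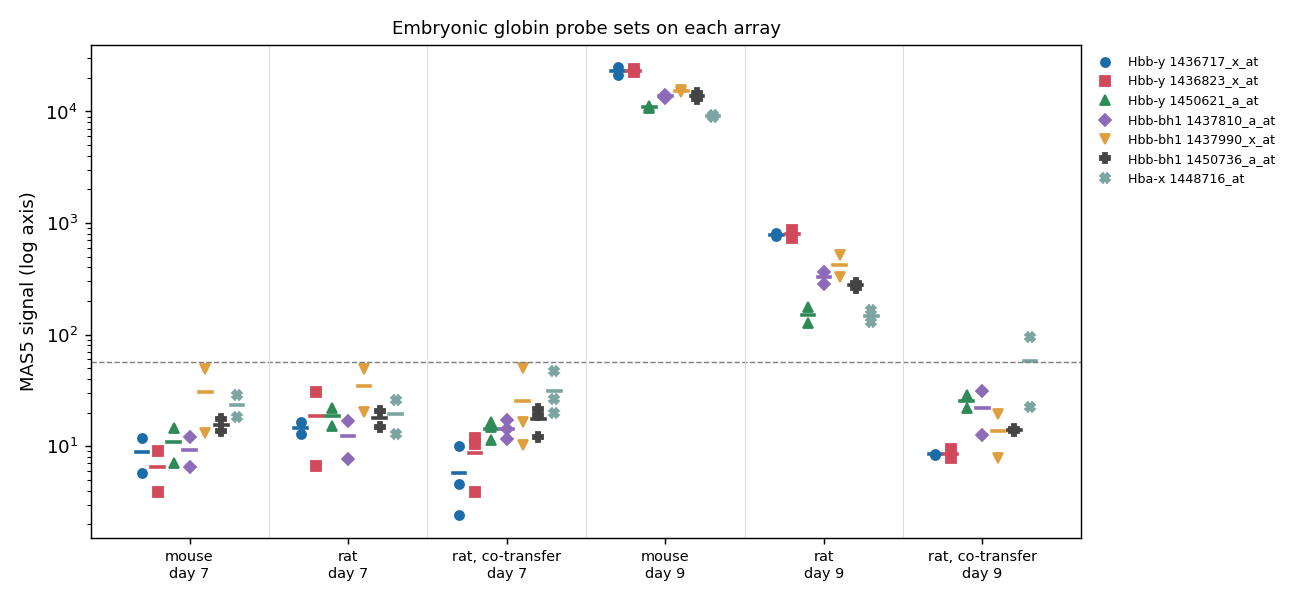
MAS5 signal of the 7 embryonic globin probe sets on each of the 13 arrays, on a log axis, by kind of site and day; each symbol is 1 array, each bar the mean of a group, and the dashed line the 25th percentile of all signals, 57.1. Mouse sites of day 9 lie between 8996 and 25015, rat sites of day 9 between 126.8 and 868.5, and every other array is under 57.1 save 1 co-transfer array with 94.3 for Hba-x.

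The 7 embryonic globin probe sets were highly correlated over the arrays. The Pearson correlation of log2 signal between any 2 of them was 0.960 to 0.9995 over the 13 arrays, a figure that rests largely on the mouse and rat arrays of day 9. Over the 11 arrays other than mouse sites of day 9, it was 0.817 to 0.998. The arrays share their scaling and, within a group, their tissue, so these are descriptions. Whether probes for 1 globin also bind transcripts of a similar globin was not tested. On day 7, with all 7 probe sets at background in all 3 kinds of site, none of them was called in any of the 3 comparisons between sites.

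Alas2 rose in all 3 kinds of site. It read 87.8 and 43.1 in mouse sites of day 7, and 702.0 and 689.2 on day 9. Rat sites read 16.8 and 16.9 on day 7, and 287.9 and 239.1 on day 9. Co-transfer rat sites read 16.4, 19.2 and 25.2 on day 7, and 122.8 and 200.6 on day 9. The day 9 groups did not overlap, with mouse above rat above co-transfer rat sites, and every array of day 9 was above every array of day 7. The log2 rise was 2.64 ± 0.20 in mouse sites (adjusted p = 7.01e-06), 2.11 ± 0.20 in rat sites (adjusted p = 2.68e-05) and 1.48 ± 0.18 in co-transfer rat sites (adjusted p = 0.000277). Alas2 in rat sites of day 9 was 37.9% of the mouse mean, a log2 difference of -1.24 ± 0.20 (adjusted p = 0.000929), and in co-transfer rat sites 23.2%, a difference of -1.81 ± 0.20 (adjusted p = 0.000442). Alas2 needed mouse sites of day 9 to pass the filter, so these differences from them are a description only. The co-transfer group lay under the rat group by -0.57 ± 0.20 (adjusted p = 0.0472), which was -0.31 without replicate 1 of the co-transfer group, -0.83 without replicate 2 of it, and -0.46 and -0.68 without replicate 1 or 2 of the rat group (adjusted p = 0.314, 0.0177, 0.204 and 0.0733).

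Alas2 was also the only member called on day 7. It was lower in rat than in mouse sites by a log2 difference of -0.70 ± 0.20 (adjusted p = 0.0263), and lower in co-transfer rat than in mouse sites by -0.64 ± 0.18 (adjusted p = 0.0218). Both rest on mouse replicate 1 with 87.8, since the other mouse array was under 57.1. Without that array the differences were -0.44 and -0.37 (adjusted p = 0.175 and 0.193). The first was also no longer called without rat replicate 1 or 2 (-0.70 and -0.71, adjusted p = 0.102 for each), nor the second without replicate 1 of the co-transfer group (-0.60, adjusted p = 0.0590).

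The membrane gene Slc4a1 was high in mouse sites of day 9 alone. Probe set 1416464_at read 83.1 and 44.6 in mouse sites of day 7, and 516.6 and 478.9 in mouse sites of day 9. Rat sites read 27.5 and 76.1 on day 7, and 146.4 and 151.3 on day 9. Co-transfer rat sites read 150.0, 133.8 and 38.3 on day 7, and 173.5 and 103.2 on day 9. Both mouse arrays of day 9 stood above all 11 others, and rat and co-transfer rat sites of day 9 overlapped. This probe set, too, was tested only through mouse sites of day 9. The log2 rise in mouse sites was 2.22 ± 0.36 (adjusted p = 0.00100), and the changes in rat and co-transfer rat sites were 0.96 ± 0.36 and 0.30 ± 0.33 (adjusted p = 0.0612 and 0.553). On day 9 the difference from mouse sites was -1.43 ± 0.36 in rat sites (adjusted p = 0.0135) and -1.53 ± 0.36 in co-transfer rat sites (adjusted p = 0.0324).

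Probe set 1434502_x_at of Slc4a1 read 546.3 and 423.0 in mouse sites of day 9 and 68.5 to 146.5 in the other day 9 sites. On this probe set mouse sites of day 7 read 68.2 and 196.0, a wider spread, and the rise in mouse sites was 1.60 ± 0.41 (adjusted p = 0.0111). It was no longer called without replicate 1 of day 7 (1.09, adjusted p = 0.0869) or replicate 1 of day 9 (1.43, adjusted p = 0.0574). Its differences from mouse sites on day 9 were -1.75 ± 0.41 in rat sites and -1.72 ± 0.41 in co-transfer rat sites (adjusted p = 0.00906 and 0.0328). Leaving out arrays moved these calls over the threshold for both probe sets. The co-transfer calls ended without any single mouse or co-transfer array of day 9 (-1.27 to -1.89, adjusted p = 0.0736 to 0.189). The rat calls ended without mouse replicate 1 or rat replicate 1 of day 9 and, for 1416464_at, without rat replicate 2 (-1.38 to -1.59, adjusted p = 0.0540 to 0.0708). Probe set 1431743_a_at of Slc4a1 was under 57.1 on 12 of 13 arrays and did not show the rise of mouse day 9 (17.0 and 27.4), so the 3 probe sets of this gene disagree.

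Epb42 read near or under the background level of 57.1. Its probe set 1417337_at read 46.9 and 68.0 in mouse sites of day 9, and its highest signal on the other 11 arrays was 24.8. Probe set 1417338_at read 37.8 and 59.8 in mouse sites of day 9, and 15.8 to 37.9 elsewhere. With each probe set the only signal over 57.1 was thus on 1 of the 2 mouse arrays of day 9. The signals under 57.1 are not ranked. With no filter on low signals, 1417337_at was called higher on day 9 than on day 7 in mouse sites (log2 change 0.77, adjusted p = 0.0155) and lower in rat than in mouse sites of day 9 (-0.92, adjusted p = 0.00828). Both values rest on signals near or under 57.1.

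**Figure D2:**
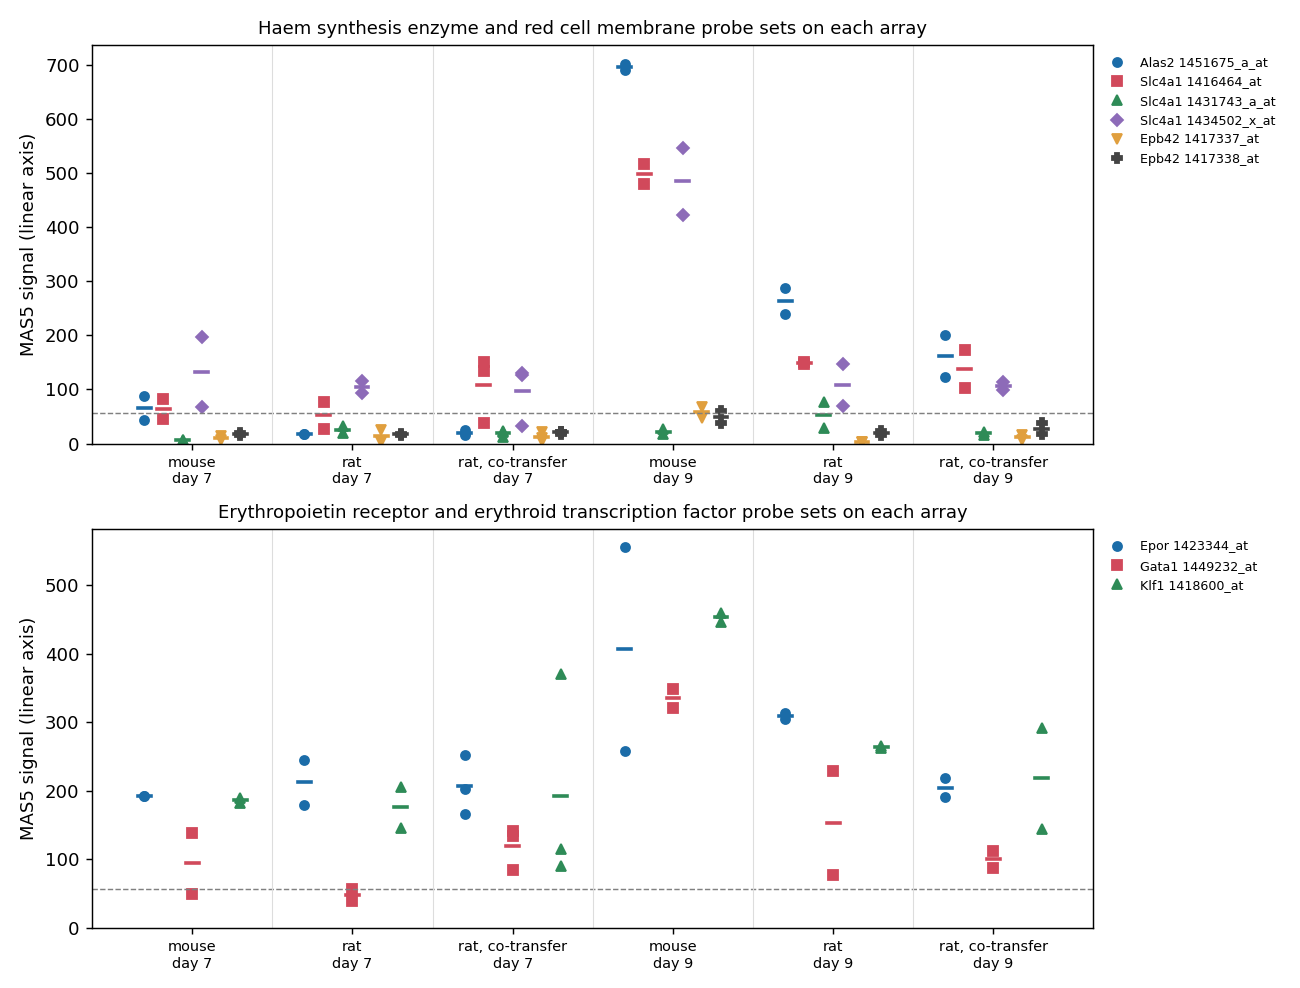
MAS5 signal of the haem synthesis and membrane probe sets (upper panel) and of Epor, Gata1 and Klf1 (lower panel) on each of the 13 arrays, on linear axes; each symbol is 1 array, each bar a group mean, and the dashed line the level of 57.1. Alas2 and 2 probe sets of Slc4a1 separate mouse sites of day 9 from all others, while Epor reads 258.2 and 556.0 on the mouse arrays of day 9.

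For the receptor and the transcription factors, few comparisons were called. Gata1, without which erythroid precursors do not mature, read 138.4 and 49.5 in mouse sites of day 7, and 320.8 and 348.5 on day 9. Rat sites read 56.6 and 39.5 on day 7, and 228.2 and 77.0 on day 9, and co-transfer rat sites 134.1, 141.8 and 83.8 on day 7, and 112.7 and 87.2 on day 9. Both mouse arrays of day 9 were above all other arrays, and the 2 rat arrays of day 9 differed widely. Gata1, tested only through its signal in mouse sites of day 9, rose there by 1.44 ± 0.36 (adjusted p = 0.00935), or by 1.0 without replicate 2 of day 7 (adjusted p = 0.0771). The differences from mouse sites on day 9 were -1.0 ± 0.36 in rat sites (adjusted p = 0.0582) and -1.32 ± 0.36 in co-transfer rat sites (adjusted p = 0.0528), neither called. Without rat replicate 1 the former was -1.55 and called (adjusted p = 0.0102), and without rat replicate 2 it was -0.46.

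Klf1, which activates adult beta-globin and many red cell genes, read 189.3 and 182.0 in mouse sites of day 7, and 458.7 and 446.6 on day 9. Rat sites read 205.8 and 145.6 on day 7, and 262.5 and 265.6 on day 9. Co-transfer rat sites read 115.1, 89.8 and 369.8 on day 7, and 144.7 and 291.2 on day 9. The mouse arrays of day 9 were again the highest, but the co-transfer arrays spread over much of the range. The value of 369.8 is that of replicate 3, the array with the later hybridisation date. The log2 change in mouse sites was 1.07 ± 0.43 (adjusted p = 0.0696), and on day 9 the differences from mouse sites were -0.67 ± 0.43 in rat sites and -0.94 ± 0.43 in co-transfer rat sites (adjusted p = 0.277 and 0.231). With 95% intervals of 0.97 on either side, a difference as large as that of Alas2 in rat sites cannot be set aside for Klf1.

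Epor was present above 57.1 on every array. It read 192.3 and 191.5 in mouse sites of day 7, 245.3 and 179.0 in rat sites, and 165.3, 202.3 and 251.6 in co-transfer rat sites. On day 9 it read 258.2 and 556.0 in mouse sites, 304.9 and 313.2 in rat sites, and 218.3 and 190.6 in co-transfer rat sites. The rat arrays of day 9 lay between the 2 mouse arrays. The rise in mouse sites was called, at 0.82 ± 0.27 (adjusted p = 0.0324), but it rests on replicate 2 of day 9 with 556.0: it was 0.34 without that array (adjusted p = 0.232), 1.30 without replicate 1 of day 9, and 0.82 and not called without either array of day 7 (adjusted p = 0.10 and 0.105). The difference of rat from mouse sites on day 9 was -0.26 with a 95% interval of 0.60 on either side (adjusted p = 0.498). Without mouse replicate 1 it was -0.74 and called (adjusted p = 0.0262), as was the difference of co-transfer rat from mouse sites, at -1.23 (adjusted p = 0.00981) against -0.75 with both arrays (adjusted p = 0.127).

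Counted over the 13 tested probe sets, 12 were called higher on day 9 than on day 7 in mouse sites, all but Klf1, where 21.9% of all tested probe sets were called higher. In rat sites 8 were called higher, the 7 embryonic globin probe sets and Alas2, against 20.1% of all. In co-transfer rat sites 1, Alas2, was called higher, against 10.8% of all. Between rat and mouse sites of day 9, 10 were called lower, against 14.4% of all, and the 3 not called were Epor, Gata1 and Klf1. The same 10 were called lower in co-transfer rat than in mouse sites, where 3.77% of all probe sets were. Between co-transfer and rat sites of day 9, 8 were called lower, the 7 globin probe sets and Alas2, against 18.1% of all. On day 7, 1 probe set, that of Alas2, was called lower in rat than in mouse sites (11.4% of all), 1 was called lower in co-transfer rat than in mouse sites (14.2%), and limma called 0 in either direction between co-transfer and rat sites (0.967%). In that last comparison 1 of the 13, Gata1, had an unadjusted p under 0.05. These comparisons share groups, so their counts are not independent of each other.

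**Figure D3:**
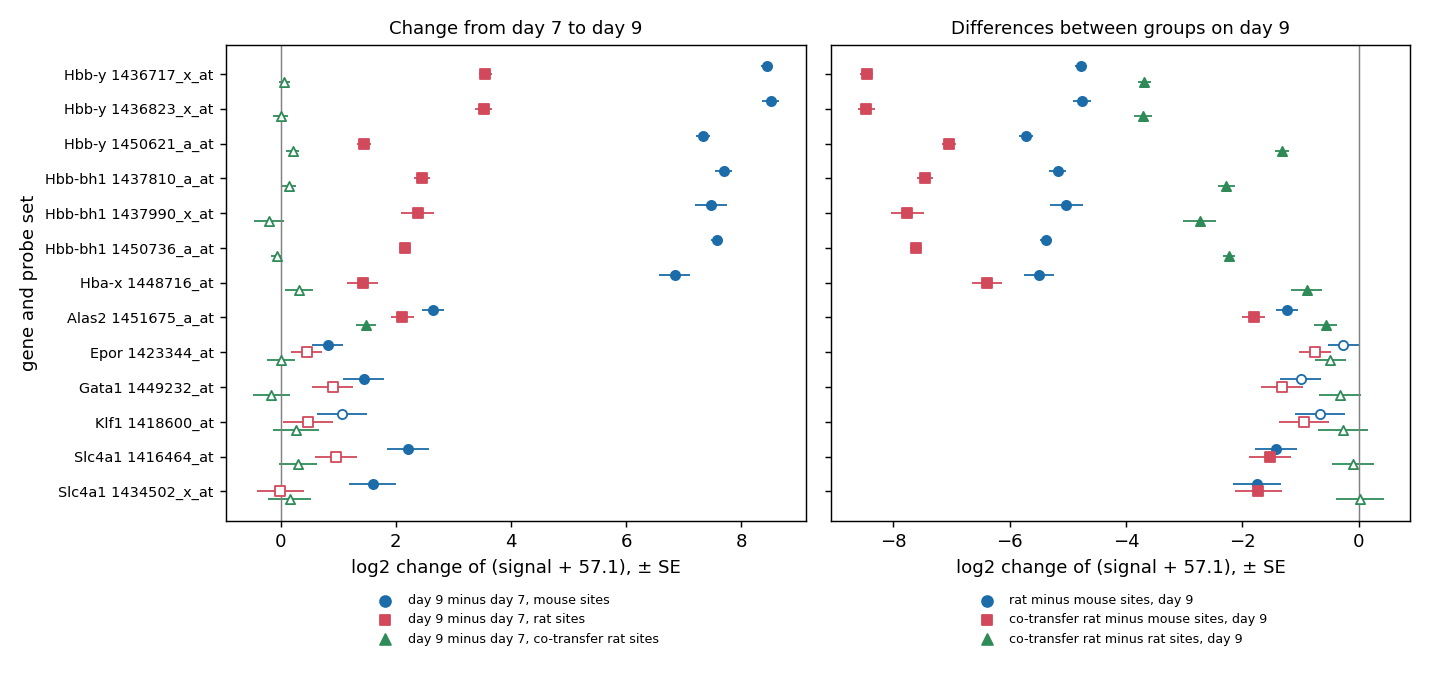
Log2 changes of the 13 tested probe sets with their standard errors, from day 7 to day 9 in each kind of site (left) and between kinds of site on day 9 (right); filled symbols are called at an adjusted p under 0.05 and open symbols are not. The globin probe sets rise by 6.84 to 8.51 in mouse sites, by 1.42 to 3.55 in rat sites, and show no called change in co-transfer rat sites.

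Whether the change from day 7 to day 9 itself differed between kinds of site was tested with interaction terms. Of the 13 probe sets, 7 had a smaller rise in rat than in mouse sites, all embryonic globins (16.1% of all probe sets were called lower in this test). The rise was smaller in co-transfer rat than in mouse sites for 10, the 7 globin probe sets, Alas2, Gata1 and Slc4a1 1416464_at (9.77% of all). It was smaller in co-transfer rat than in rat sites for the 7 globin probe sets (13.7% of all). For Hbb-y 1436717_x_at the 3 interaction values were -4.90 ± 0.15, -8.39 ± 0.15 and -3.49 ± 0.15 on the log2 scale. The calls of Alas2, Gata1 and Slc4a1, and that of Hba-x between co-transfer rat and rat sites, ended without single arrays. For Alas2 the difference in rise between rat and mouse sites was -0.53 ± 0.28 and was not called (adjusted p = 0.174), but it was -0.80 and called without mouse replicate 1 of day 7 (adjusted p = 0.0477).

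The adult globins, which red cells of the mother carry, read high in every kind of site. The probe sets that report them well are annotated to several adult globin genes each, so they are given by probe set, and they were added after their values had been seen. The adult beta probe set 1417184_s_at read 5753 and 6064 in mouse sites of day 7, 2820 and 2844 in rat sites, and 3152 to 3557 in co-transfer rat sites. On day 9 it read 15165 and 17475 in mouse sites, 17238 and 16095 in rat sites, and 10823 and 11060 in co-transfer rat sites. Mouse and rat sites of day 9 overlapped, with a log2 difference of 0.03 ± 0.10 (adjusted p = 0.839), where Hbb-y 1436717_x_at differed by -4.77 ± 0.11. The log2 rise from day 7 was 1.45 ± 0.10 in mouse sites, 2.53 ± 0.10 in rat sites and 1.71 ± 0.09 in co-transfer rat sites, all called (adjusted p = 5.07e-06, 1.06e-07 and 1.76e-06). On day 9 it was lower in co-transfer rat than in mouse sites by -0.57 ± 0.10 (adjusted p = 0.00882), a call that ended without mouse replicate 2 or either co-transfer array (-0.47 to -0.59, adjusted p = 0.0557 to 0.0680). It was also lower in co-transfer rat than in rat sites, by -0.60 ± 0.10 (adjusted p = 0.00136), and this call held without any single array.

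The 3 adult alpha probe sets also read high on every array of day 9, and they disagreed on the comparison of rat with mouse sites. On day 9, 1428361_x_at averaged 19579 ± 2582 (SD, n = 2) in mouse sites, 22086 ± 605 in rat sites and 14585 ± 105 in co-transfer rat sites. Probe set 1452757_s_at averaged 18892 ± 1552, 19815 ± 165 and 15203 ± 656. Probe set 1417714_x_at averaged 19260 ± 27.6, 12862 ± 72.7 and 8934 ± 449.9, and was the only one of the 3 called lower in rat than in mouse sites of day 9 (-0.58 ± 0.17, adjusted p = 0.0280), with no overlap between the groups. Without any single array of these groups its value stayed at -0.57 to -0.59 with fewer arrays in the fit, and the adjusted p was 0.0880 to 0.0989. Co-transfer rat sites were lower than rat sites of day 9 with all 3, by -0.60 ± 0.13 for 1428361_x_at, -0.52 ± 0.17 for 1417714_x_at and -0.38 ± 0.13 for 1452757_s_at (adjusted p = 0.00636, 0.0405 and 0.0409). The first of these held without any single array, and the calls of the other two ended without any single rat or co-transfer array of day 9 (-0.34 to -0.57, adjusted p = 0.0936 to 0.175). From mouse sites of day 9, co-transfer rat sites differed by -1.10 for 1417714_x_at, which was called (adjusted p = 0.00432), and by -0.42 and -0.31 for 1428361_x_at and 1452757_s_at, which were not (adjusted p = 0.0899 and 0.176). All 3 rose from day 7 to day 9 in every kind of site, by 1.31 to 3.61 on the log2 scale. Adult alpha globin is also made by embryonic red cells, and whether this signal came from the mother or the embryo was not tested.

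**Figure D4:**
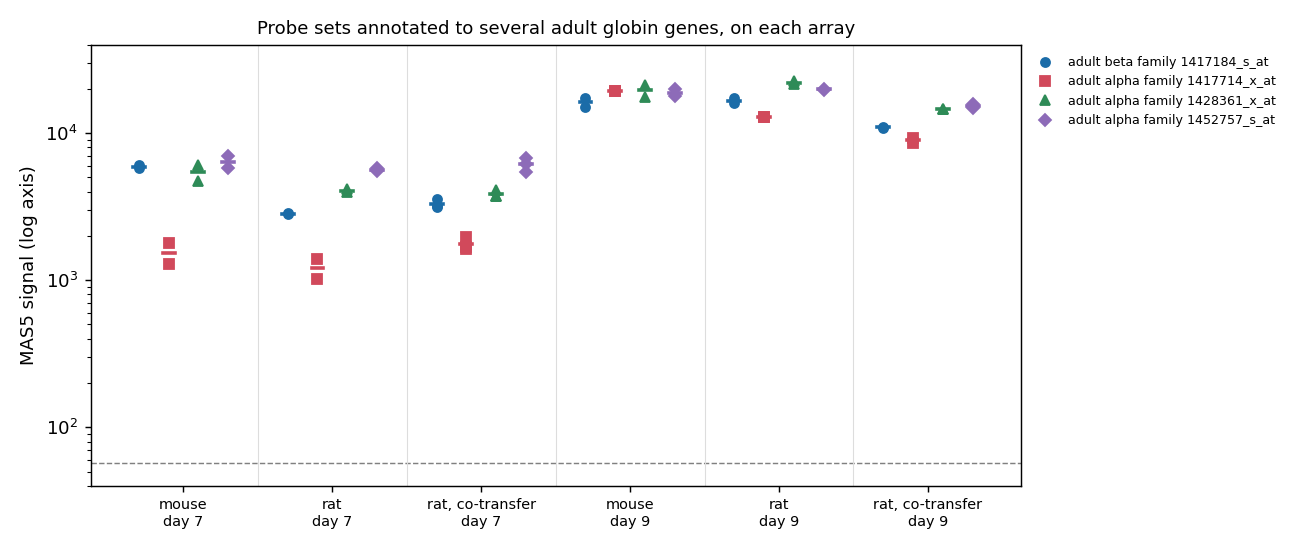
MAS5 signal of the 4 probe sets annotated to several adult globin genes on each of the 13 arrays, on a log axis; symbols are arrays, bars group means, and the dashed line the level of 57.1. All arrays of day 9 read between 8616 and 22514, including the co-transfer rat sites in which the embryonic beta-like globins are at background.

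Among probe sets annotated to 1 adult globin gene, Hba-a2 1427219_at stayed under 57.1 on every array and Hba-a1 1453574_at read 25.0 to 287.7. The probe sets of Hbb-b2 disagreed: 1427865_at was lower in rat than in mouse sites of day 9 (-1.07 ± 0.32, adjusted p = 0.0279), and 1427866_x_at was higher (1.06 ± 0.31, adjusted p = 0.0275). Both calls depend on single arrays of day 9. The former was -0.57 without rat replicate 2 and also ended without either mouse array (-0.98 and -1.16), and the latter was 0.76 without mouse replicate 2 and 0.83 without rat replicate 1 (adjusted p = 0.0709 to 0.189 over these fits). Copies of these genes are nearly identical, so their single values are uncertain.

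Other genes of red cells were taken from 4 lists, with 1 probe set each. In mouse sites, from day 7 to day 9, 5 of 16 tested genes of haem synthesis and iron handling rose and 2 fell, 6 of 13 membrane genes rose and 2 fell, 6 of 18 transcription factor and progenitor genes rose and 2 fell, and 2 of 14 enzyme and chaperone genes rose and 6 fell. Over all tested probe sets 21.9% were called higher and 22.3% lower. Fech, which inserts iron into haem, rose by 0.99 ± 0.13 (adjusted p = 0.000230), and Hmox1, which breaks haem down, fell by 1.03 on the log2 scale (adjusted p = 0.000847). Hemgn, a nuclear protein of erythroid progenitors, rose by 2.11 ± 0.35 (adjusted p = 0.00104), from a mean of 34.0 to 318.1. It passed the filter only through mouse sites of day 9. Its values and p against these sites, here and below, are therefore a description only. Of the membrane genes, Icam4 rose by 1.5 ± 0.21 and Aqp1, a water channel that vessels also carry, by 1.35 ± 0.10 (adjusted p = 0.000355 and 7.67e-06).

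Between rat and mouse sites of day 9 the lists moved in both directions. Of the haem and iron genes 4 were lower and 1 higher, of the membrane genes 4 and 1, of the transcription factors 5 and 1, and of the enzymes 4 and 5, where 14.4% of all probe sets were lower and 17.1% higher. Hemgn, tested only through mouse sites of day 9, was lower in rat sites by a log2 difference of -1.84 ± 0.35 (adjusted p = 0.00285), with means of 54.9 against 318.1. Fech was lower by -0.87 ± 0.13 (adjusted p = 0.000545). Runx1 and Kit, genes of blood progenitors that other cells of the site can also express, were lower by -2.05 ± 0.17 and -1.63 ± 0.12 (adjusted p = 1.41e-05 and 3.89e-06). Myb, Car2 and Alox15 were higher, Alox15 by 3.05 ± 0.28 (adjusted p = 2.34e-05). Alox15 was under 57.1 on both mouse arrays of day 9, so the size of its difference depends on that level. Median log2 differences were -0.27, -0.10, -0.23 and 0.13 in the 4 lists, against 0.06 over all tested probe sets.

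Between co-transfer rat and mouse sites of day 9, few genes of these lists were called. Of the haem and iron genes 1 was lower, of the membrane genes 0, of the transcription factors 1 was higher, and of the enzymes 4 were lower, where 3.77% of all probe sets were lower and 3.94% higher. Of the 13 membrane genes, limma gave 3 an unadjusted p under 0.05, and their median log2 difference was -0.20 against 0.00 over all tested probe sets. Runx1 averaged 1651 in co-transfer rat sites and 1706 in mouse sites, and Kit 3109 and 2818. Hemgn was among the 4 lower enzyme-list genes, at 50.9 against 318.1 (-1.80 ± 0.35, adjusted p = 0.0131), a call that ended without mouse replicate 2 or either co-transfer array of day 9 (-1.72 to -1.87, adjusted p = 0.0651 to 0.0863). Pklr, the red cell pyruvate kinase, differed by -0.81 ± 0.14 (adjusted p = 0.00621), a call that ended without mouse replicate 2 or co-transfer replicate 2 of day 9 (-0.73 and -0.76, adjusted p = 0.0506 and 0.0564). Car2, a carbonic anhydrase, differed by -0.77 ± 0.10 (adjusted p = 0.00130), while in rat sites it was higher than in mouse sites by 1.97 ± 0.10 (adjusted p = 3.68e-07).

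Markers of the yolk sac moved with the embryonic globins between mouse sites of day 9 and the other groups. The summed signal of 8 yolk sac and visceral endoderm genes was 1054 to 1797 on the day 7 arrays, 24259 to 24528 in mouse sites of day 9, 2331 to 2933 in rat sites of day 9, and 995.2 to 1046 in co-transfer rat sites of day 9. All 8 were lower in rat than in mouse sites of day 9, where 14.4% of all probe sets were, and all 8 in co-transfer rat than in mouse sites, where 3.77% were. Between co-transfer rat and rat sites of day 9, 4 of the 8 were lower, where 18.1% of all were. Apoa1 and Apoa4, apolipoproteins of visceral endoderm, were under 57.1 on all rat and co-transfer arrays of day 9, and Cubn on both co-transfer arrays. At least Apoa1, Apoa4 and Cubn were tested only through mouse sites of day 9, and were bound to be lower in the other groups. The counts of all 8 against mouse sites are therefore a description only. Of 8 listed trophoblast genes, 4 were measured, and their sum followed another pattern. The summed signal of 4 trophoblast genes was 6219 to 6829 in mouse sites of day 9, 378.6 to 627.6 in rat sites, and 1329 in both co-transfer arrays, so here the rat and co-transfer groups stood in the other order, and 1 of the 2 tested genes was called lower in rat than in mouse sites. Prl4a1, a placental gene outside this list, averaged 15912 in mouse sites of day 9. It averaged 286 in rat sites and 34.25 in co-transfer rat sites of day 9. Prl4a1 was picked below for its likeness to the globins, which selects for this order, so it does not stand for placental genes in general. The part of the yolk sac and trophoblast markers in the globin differences was not tested.

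Markers of endothelium, uterine epithelium and decidual stroma followed other patterns. Whether their RNA came from the mother or the embryo was not tested. The summed signal of 6 endothelial genes on day 9 was 8163 to 8659 in mouse sites, 4508 to 4587 in rat sites and 8450 to 8729 in co-transfer rat sites. That of 6 uterine epithelial genes was 19233 to 19573, 57378 to 59235 and 6748 to 7089, and that of 7 genes of decidual stroma 48070 to 53497, 35757 to 36351 and 57371 to 58960. None of these 3 sums had the order mouse, rat, co-transfer rat of the embryonic globins. The 7 measured genes of megakaryocytes and platelets, cells of the sister lineage, summed to 2489 to 2829 in mouse sites of day 9, 2895 to 2991 in rat sites and 2187 to 2291 in co-transfer rat sites.

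The genes whose log2 signal over the 13 arrays was most like the mean of the 3 embryonic globins, out of 11995 genes ranked by Pearson correlation, were Prl7a1 (0.993), Afp (0.992), Prl4a1 (0.990), Prl7d1 (0.984), Pdzk1 (0.981), Cubn (0.978), Prl7b1 (0.977) and Rhox6 (0.977). The 4 Prl genes belong to the placental prolactin family, and Afp and Cubn are genes of the visceral endoderm. Prl7a1 averaged 11213 ± 195 (SD, n = 2) in mouse sites of day 9, 315.2 ± 65.7 in rat sites and 57.5 ± 2.05 in co-transfer rat sites. Afp averaged 10643 ± 189, 271.9 ± 52.5 and 70.5 ± 11.4. Both had the order of the globins on day 9, which the ranking selects for, and both averaged under 57.1 in every group of day 7. Without the mouse arrays of day 9 the correlations over 11 arrays were lower, from 0.935 for Prl7a1 to 0.764 for Rhox6. The values are descriptions across arrays that share their scaling.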

How the data were processed

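The deposited table holds 1 MAS5 signal intensity per probe set and array, on a linear scale; the authors made these intensities from scanned arrays and scaled each array to one target, per the submitters' processing notes, which give no MAS5 version here. Detection calls were not used here. Of 45101 probe sets, 34958 had 1 gene symbol in the platform annotation, 932 several and 9211 none. With R 4.3.3 and limma 3.58.1, log2(signal + 57.1) was fitted with 6 group means over all 13 arrays (7 residual and 2.71 prior degrees of freedom), leaving out 64 control probe sets. Of the rest, 22138 were tested, those above the 60th percentile of their array (221.3 to 291.6) on at least 2 arrays. There were 9 comparisons and 3 interactions, each adjusted by the Benjamini-Hochberg method over all tested probe sets. The script was tested on simulated data.

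Genes of other lists entered through their brightest tested probe set, and up to 3 called genes a list with the largest changes could be named. Alternatives were other pseudocounts, filters and normalizations, array weights, blocks for date, wash run and replicate number, only the arrays compared, and each array left out. Wash runs were inferred from recorded times more than 30 minutes apart. Members and lists were chosen with earlier results of these data known. Promoters came from RefSeq's table for GRCm38.p6, matched by symbol. The number of arrays limits the precision.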

Additional observations from a re-analysis of the deposited data

Results flagged for a closer look

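For 24 of 39 interaction tests of the member probe sets, the change from day 7 to day 9 differed between 2 kinds of site at an adjusted p under 0.05 (limma). Of all tested probe sets, 16.1%, 9.77% and 13.7% were called lower in the 3 interactions, in the order used next. Hba-x, Gata1, Slc4a1 and Hbb-y 1450621_a_at were tested only because of their signal in mouse sites of day 9. The other probe sets in this count passed only through mouse and rat sites of day 9, so the whole count is a description. The 3 interactions share groups and several probe sets report the same gene, so the tests are not independent of each other. All 24 values were negative, and they are log2 differences in change, given in the order rat minus mouse, co-transfer rat minus mouse and co-transfer rat minus rat sites. Hbb-y gave -4.90, -8.39 and -3.49 with 1436717_x_at, -4.99, -8.51 and -3.53 with 1436823_x_at, and -5.88, -7.12 and -1.24 with 1450621_a_at. Hbb-bh1 gave -5.24, -7.56 and -2.32 with 1437810_a_at, -5.10, -7.67 and -2.58 with 1437990_x_at, and -5.41, -7.64 and -2.23 with 1450736_a_at. Hba-x gave -5.42, -6.52 and -1.10. The beta-like values held without any single array.

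The last Hba-x value had an adjusted p of 0.0476 and ended without 8 of its 9 single arrays (-0.63 to -1.23, adjusted p = 0.0524 to 0.143). Between co-transfer rat and mouse sites the values were -1.16 for Alas2, -1.60 for Gata1 and -1.91 for Slc4a1 1416464_at (adjusted p = 0.0151, 0.0458 and 0.0251). Each of these calls ended without certain single arrays. For Alas2 these were mouse replicate 2 of day 7 and co-transfer replicate 1 of day 9 (-0.90 and -0.91, adjusted p = 0.0506 and 0.0516). For Gata1 they were 7 arrays, all save mouse replicate 1 and co-transfer replicate 3 of day 7 (-1.16 to -1.72, adjusted p = 0.0786 to 0.153). For Slc4a1 1416464_at they were mouse replicate 2 of day 7, both mouse arrays of day 9 and co-transfer replicate 2 of day 9 (-1.65 to -1.96, adjusted p = 0.0572 to 0.0911).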

How the results depend on the processing

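Over 2465 values of member changes under the alternatives, 2331 kept their side of the threshold, with the direction kept too in every called one, 93 lost the call, 41 gained it, and 0 called values reversed. The sign changed in 83 values that were not called. All 24 calls of Hbb-y and all 24 of Hbb-bh1 held under every alternative run where the probe set was tested, as did 6 of 8 calls of Hba-x, 5 of 9 of Alas2 and 1 of 7 of Slc4a1, but 0 of 2 of Gata1 and 0 of 1 of Epor. A filter on the mean over all arrays kept 22518 probe sets but only 5 members, so counts fell by construction: 3 were called in each day 9 comparison between kinds of site and in each interaction, 4 in the change over days in mouse sites, 3 in rat sites and 0 in co-transfer rat sites, and 0 in both day 7 comparisons with mouse sites. Those day 7 counts, 1 each with Alas2, were also 0 with the pseudocount at the median (173.7) and with no filter (16 members tested), and for rat against mouse sites with only the arrays compared; the cause was not tested. With 1 array left out they were 0 to 1, and the change over days in co-transfer rat sites gave 1 to 2 calls. Replicate numbers did not pair the arrays: over 30 pairs the correlation of deviations was -0.206 to 0.0904. Where both groups hold 2 arrays, replicates 1 and 2 give the same value by construction, so the 30 values are not all distinct. With a replicate block the day 7 counts with mouse sites were 0, and in rat against mouse sites of day 9, 11 members were called. The wash run as a random block was added after seeing the data and left no count outside 1.5 times the main one. With 2 or 3 arrays a group, values near 57.1 carry little information, and the binding of rat RNA to mouse probes was not measured.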

Other observations

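Probe sets above 1000 on both mouse arrays of day 9 and under 57.1 on all arrays of day 7 and of co-transfer rat sites of day 9 numbered 16, a rule set after seeing the data. They were 6 probe sets of Hbb-y and Hbb-bh1 and 10 others, of which 4 were of Apoa1 and 3 of Afp, with Cyp17a1, Rhox6 and Pfpl. In rat sites of day 9 the 6 globin probe sets reached 1.39% to 3.47% of the mouse mean (median 2.57%), and the other 10 reached 0.346% to 8.36% (median 1.44%). Of those 10, 3 were at or above 57.1 on both rat arrays.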
